A study of Mus musculus with 19 samples.

Results

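Laminins are the large glycoproteins from which basement membranes, the matrix sheets under epithelia and around vessels and muscle cells, are assembled. Each laminin is a trimer of an alpha, a beta and a gamma chain. The alpha chain carries most of the binding to cell surface receptors, and the gamma chain also binds nidogen. In the ovary, basement membranes surround the follicles, underlie the surface epithelium and sheathe the vessels and smooth muscle of the stroma. This account covers 10 laminin chain genes (Lama1, Lama2, Lama3, Lama4, Lama5, Lamb1, Lamb2, Lamb3, Lamc1 and Lamc3), out of 18193 genes that had at least 1 probe set of their own on the array. The members were taken by family name, as every probe set annotated to 1 of these genes alone, which gave 19 of 34945 single-gene probe sets. The family was chosen by the low Lamc3 signals of the double knockout against its controls, so the double knockout values below are a description. No p-value is given for them, and where a count past the threshold is printed beside the same share over all probe sets, nothing is read from it.

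Whole ovaries of mice aged 2 months were profiled on 19 Affymetrix mouse arrays. The groups were 3 DKO arrays (Ihh_Dhh_dKO, both ligand genes deleted), 4 Dhh KO arrays, 4 Ihh KO arrays and 8 control arrays (Ihh_Dhh_dhet, heterozygous for both genes). Both genes code for hedgehog ligands, Desert (Dhh) and Indian (Ihh), and every sample, controls included, carries the note of a gene deletion limited to the ovary. The driver of that deletion is not given in the sources used here, and nothing in the labels says whether arrays of a group came from separate animals, so p-values measure the spread between arrays. Values are linear MAS5 signals, a summary of the brightness of the probes for a transcript, scaled by the authors to the same trimmed mean on every array. The hybridization spikes split the arrays into a set of 7 (DKO and controls 1 to 4, BioC 3'/5' ratio 0.987 to 1.06) and a set of 12 (Dhh KO, Ihh KO and controls 5 to 8, ratio 0.685 to 0.781), so each mutant group is set against the controls of its own set. Across probe sets, the deviations of controls 1 to 4 from their mean correlated in order with those of controls 5 to 8 (r = 0.52 to 0.74). The labels do not say whether both sets were made from the same RNA, so the 8 control arrays are not shown to be 8 separate samples. Ovary markers were present on all arrays, with summed signals of 16510 to 23600 for 5 granulosa genes and 3444 to 12120 for 5 oocyte genes. Dhh itself read 3.85, 4.28 and 14.2 on DKO 1 to 3 and 5.14 to 25.4 in Dhh KO, against 606 to 1371 on the controls. Ihh read 36.3 to 52.7 in DKO and 12.5 to 43.5 on Ihh KO 1 to 3, against 139 to 426 on the controls. The array labelled Ihh KO 4 had a Dhh signal of 2.96, where Ihh KO 1 to 3 had 527 to 709, and an Ihh signal of 108. That goes against its label. The brighter Lamc3 probe set, Lama1, Lama2 and Lamb2 are also given without it, and other Ihh KO values and counts include it unless stated. In RNA of whole ovaries, fewer cells of a type and less RNA per cell cannot be told apart.

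Of the 19 laminin probe sets, 14 lay above the filter on dim signals, a mean equal to a signal of 69.3, and were tested. Lamb3 had no tested probe set, its only one lying 0.69 below the filter on the log2 scale. Of the other untested ones, a weaker Lama5 probe set lay just outside it (0.09 below) and a weak Lamb1 probe set 0.29 below, while the dimmer Lama3 and the dimmest Lama5 probe sets were over 2 log2 units below. The tested ones nearest to the filter were the dimmer Lamc3 probe set (0.48 above) and Lama3 (0.48 above). Lamb1 had 3 tested probe sets, Lama4, Lamc1 and Lamc3 had 2 each, and the other five tested genes had 1. Probe sets of a gene read the same RNA and are not independent.

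Promoter windows, 250 bases before to 50 after the transcription start in RefSeq (GRCm38.p6), were given for 5 of the 10 genes. These were Lama2, Lama5, Lamb1, Lamb2 and Lamb3, so no window of Lamc3 was searched. The 250 bases upstream of Lama2 are shown because Lama2 is the chain whose signals lay below the controls in both Ihh KO and DKO. They lie at chr10:27616943-27617192 on the minus strand, have a GC content of 47.2% and hold 0 CpG dinucleotides. No base is in capitals, since the motif searched, GACCACCCA or its reverse complement TGGGTGGTC, the consensus bound by Gli transcription factors, was not found in this window.
Lama2: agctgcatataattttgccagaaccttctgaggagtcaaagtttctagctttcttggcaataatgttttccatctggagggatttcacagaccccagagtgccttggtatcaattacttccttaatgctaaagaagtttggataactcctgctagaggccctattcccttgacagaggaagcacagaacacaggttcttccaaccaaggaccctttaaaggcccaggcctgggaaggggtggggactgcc
The motif was in 0 of the 6 windows of these 5 genes and in 0.253% of all 32851 windows. At so low a share, 0 of 6 tells nothing about these genes. The search describes only the letters of these windows.

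Lamc3 encodes a gamma chain that is expressed in fewer tissues than Lamc1. Its brighter probe set read 26.7, 22.1 and 17.9 on DKO 1 to 3, against 142, 252, 327 and 239 on controls 1 to 4. All 3 DKO arrays lay far below the lowest control. The second probe set read 30.4, 28.3 and 5.21 in DKO, against 102, 96.1, 160.2 and 142 on controls 1 to 4, again with no overlap. These are the values that singled out the family. All but 1 of these 6 DKO signals lay under 29.4, the 25th percentile of all signals, and no detection calls were used, so how far Lamc3 lay below the controls is not well measured. On the log2 scale, with a pseudocount of 7.02 that narrows differences between dim signals, the DKO value was -3.03 (SE 0.35) and -2.35 (SE 0.37). With a pseudocount of 29.4 it was -2.34 and -1.63. With DKO 3 left out the dimmer probe set stood at -1.83 and the brighter at -2.92.

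In the single knockouts Lamc3 did not pass the test by either probe set. The brighter one read 141, 299.8, 252 and 152 in Dhh KO. On Ihh KO 1 to 4 it read 219, 124, 69.3 and 146, while it read 136, 206, 295 and 183 on controls 5 to 8. The Dhh KO arrays covered nearly the range of the controls, and Ihh KO 2 and Ihh KO 3 lay below the lowest control. Against these controls the log2 difference was 0.03 (SE 0.33, limma adjusted p = 0.99) in Dhh KO and -0.58 (SE 0.33, limma adjusted p = 0.45) in Ihh KO. Leaving out the array labelled Ihh KO 4 gave -0.64 (limma adjusted p = 0.41). The second probe set gave 0.37 (SE 0.34, adjusted p = 0.72) in Dhh KO and -0.14 (SE 0.34, adjusted p = 0.89) in Ihh KO. Ihh KO stood against Dhh KO at -0.61 (SE 0.33, adjusted p = 0.48) and -0.51 (SE 0.34, adjusted p = 0.56) by the 2 probe sets. Controls 1 to 4 and 5 to 8 ranked in the same order by the brighter probe set, lowest at controls 1 and 5 and highest at controls 3 and 7.

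**Figure D1:**
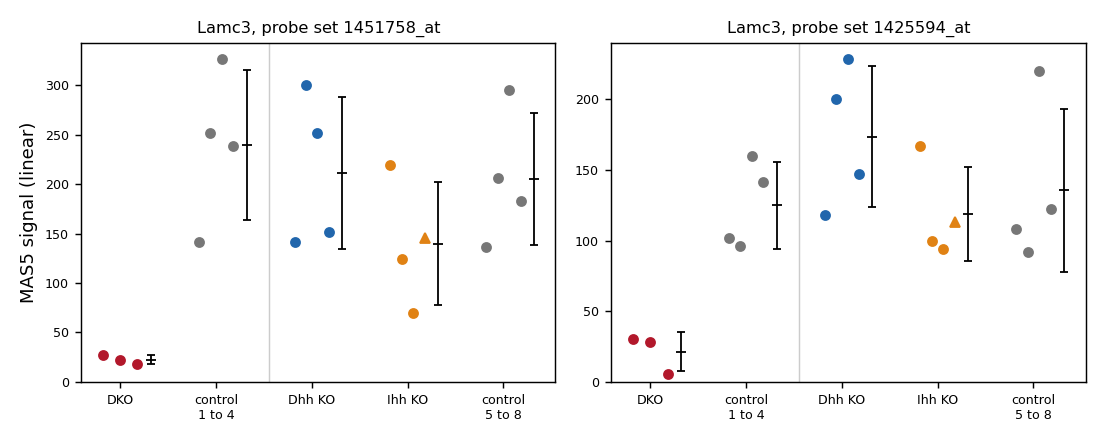
MAS5 signal (linear axis from 0) of both Lamc3 probe sets on each array, with the mean and SD of the group as a bar beside the points and the array labelled Ihh KO 4 as a triangle. The 3 DKO arrays lie between 5.21 and 30.4 in both panels, and every other array lies at 69.3 or above.

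The other gamma chain, Lamc1, which is part of most laminins, overlapped with the controls throughout. Its brighter probe set averaged 1892 ± 223 (SD, n = 3) in DKO and 2298 ± 555 (n = 4) on controls 1 to 4, a log2 value of -0.26 (SE 0.18). The second probe set stood at -0.26 (SE 0.22). In the second set the brighter one averaged 2129 ± 451 in Dhh KO, 1785 ± 208 in Ihh KO and 2074 ± 340.1 on controls 5 to 8 (SD, n = 4 each). The differences were 0.03 (SE 0.17, limma adjusted p = 0.97) in Dhh KO and -0.21 (SE 0.17, adjusted p = 0.62) in Ihh KO.

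Lama2 encodes the alpha chain of skeletal muscle and peripheral nerve laminins, whose loss causes a muscular dystrophy. It read 388, 442 and 282 on DKO 1 to 3, against 628, 965, 825 and 1035 on controls 1 to 4. Every DKO array was below every control, and the log2 value was -1.20 (SE 0.19), or -1.02 without DKO 3. On Ihh KO 1 to 4 it read 468, 426, 466 and 634, against 661, 773, 707 and 859 on controls 5 to 8. All 4 Ihh KO arrays lay below the lowest control, and the array labelled Ihh KO 4, whose Dhh signal goes against its label, lay nearest to it. The difference was -0.59 (SE 0.17, limma adjusted p = 0.16), or -0.71 with that array left out (adjusted p = 0.082), so neither passed. Over all alternatives its adjusted p ranged from 0.076 to 0.40. The summed signal of the smooth muscle list described further on was 9197 to 13083 in Ihh KO and 10665 to 14503 on controls 5 to 8, with 6 of 6 genes lower, and its part in the Lama2 value was not tested. That of 3 skeletal muscle genes was 22.6 to 115 over all arrays. In Dhh KO it read 677, 728, 909.6 and 890.5, with Dhh KO 1 and Dhh KO 2 among the controls and the other two above the highest (0.09, SE 0.17, adjusted p = 0.88). Ihh KO stood against Dhh KO at -0.68 (SE 0.17, adjusted p = 0.26), or -0.80 over Ihh KO 1 to 3 alone (adjusted p = 0.077), with no overlap between the arrays of the 2 groups.

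Lama1 and Lama3 lay higher in DKO, and most so on DKO 3. Lama1, an alpha chain of early embryonic basement membranes, read 1376, 2106 and 3010.3 in DKO, against 1284, 1433, 1782 and 1827 on controls 1 to 4. DKO 1 lay among the controls and the other two above them, a log2 value of 0.39 (SE 0.28) that was 0.12 without DKO 3. Lama3, whose product joins the Lamb3 product in the laminin that anchors the epidermis, read 113, 158 and 213 in DKO, against 92.0, 72.2, 75.5 and 84.6. Every DKO array was above every control of its set (0.90, SE 0.25, or 0.68 without DKO 3). Lamb3 was dimmer, at 45.5, 42.9 and 57.4 in DKO, against 39.5, 4.83, 32.6 and 19.8 on controls 1 to 4, and was not tested. Its arrays did not overlap there, yet controls 5 to 8 read 65.3, 72.8, 51.8 and 51.4 for the same probe set, each above DKO 1 and DKO 2. In the second set it read 30.6 to 79.1 in Dhh KO and 31.4 to 46.8 in Ihh KO, with every Ihh KO array below those controls.

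In the second set Lama1 averaged 1079.9 ± 311 in Dhh KO, 1039 ± 416 in Ihh KO and 1097 ± 204 on controls 5 to 8 (SD, n = 4 each), with adjusted p = 0.97 and 0.86 (limma). Without the array labelled Ihh KO 4, Lama1 averaged 840 ± 154 in Ihh KO (SD, n = 3). Lama3 averaged 89.2 ± 8.68 in Dhh KO, 114 ± 32.4 in Ihh KO and 90.2 ± 21.4 on these controls. Its differences were 0.005 (SE 0.23, adjusted p = 1.00) and 0.29 (SE 0.23, adjusted p = 0.61).

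Lama4, the alpha chain of vessel and smooth muscle laminins, lay lower in DKO by both of its probe sets. The brighter one read 1128, 851 and 619 on DKO 1 to 3, against 996, 1038, 1519 and 1568 on controls 1 to 4, so DKO 1 lay among the controls. The log2 values were -0.57 (SE 0.23) and -0.66 (SE 0.24), or -0.35 and -0.35 without DKO 3. In Ihh KO they were -0.32 (SE 0.21, limma adjusted p = 0.54) and -0.43 (SE 0.22, adjusted p = 0.41), and in Dhh KO -0.01 (SE 0.21, adjusted p = 0.99) and -0.22 (SE 0.22, adjusted p = 0.75).

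Lama5, an alpha chain of many adult epithelia and vessels, was the most scattered member. Its brightest probe set read 112, 116 and 241 in DKO, against 149, 142, 128 and 103 on controls 1 to 4 (0.17, SE 0.52). It read 147, 309, 165 and 132 in Dhh KO. On Ihh KO 1 to 4 it read 306, 407, 47.6 and 145, against 48.7, 125, 73.7 and 141 on controls 5 to 8. The highest arrays were Ihh KO 2 and Dhh KO 2 and the lowest was Ihh KO 3. With standard errors of 0.48, the differences of 0.93 in Dhh KO (limma adjusted p = 0.50) and 0.90 in Ihh KO (adjusted p = 0.42) did not pass.

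Of the beta chains, Lamb1, the partner of most alpha chains, was measured by 3 tested probe sets that agreed in sign in DKO. Their log2 values were -0.28 (SE 0.11), -0.35 (SE 0.17) and -0.41 (SE 0.20), and without DKO 3 they were -0.07, -0.10 and -0.06. The brightest read 3432, 3157 and 2144 on DKO 1 to 3, against 3485, 3332, 3492 and 3563 on controls 1 to 4. DKO 1 lay among the controls, DKO 2 just below them and DKO 3 far below. Between the control arrays of the 2 sets, by contrast, the 3 probe sets differed, standing in controls 5 to 8 against controls 1 to 4 at 0.02, 0.43 and 0.77. In Dhh KO they stood at 0.15, 0.06 and 0.13, and in Ihh KO at -0.05, -0.09 and -0.26 (limma adjusted p from 0.58 to 0.91 over these 6 differences). Lamb2, a beta chain of the neuromuscular junction and the kidney filter, averaged 665 ± 114 in DKO (SD, n = 3) and 662 ± 131 on controls 1 to 4 (n = 4). It averaged 888 ± 149 in Dhh KO, 729 ± 89.0 in Ihh KO and 907 ± 138 on controls 5 to 8 (n = 4 each), and the Ihh KO difference of -0.31 (SE 0.16, adjusted p = 0.41) did not pass. Without the array labelled Ihh KO 4, Lamb2 averaged 690 ± 53.7 in Ihh KO (SD, n = 3). Those arrays read 629 to 729, all below the lowest of controls 5 to 8 (759), while the array labelled Ihh KO 4 read 845. The share of all probe sets without overlap was not counted for Ihh KO 1 to 3 alone.

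**Figure D2:**
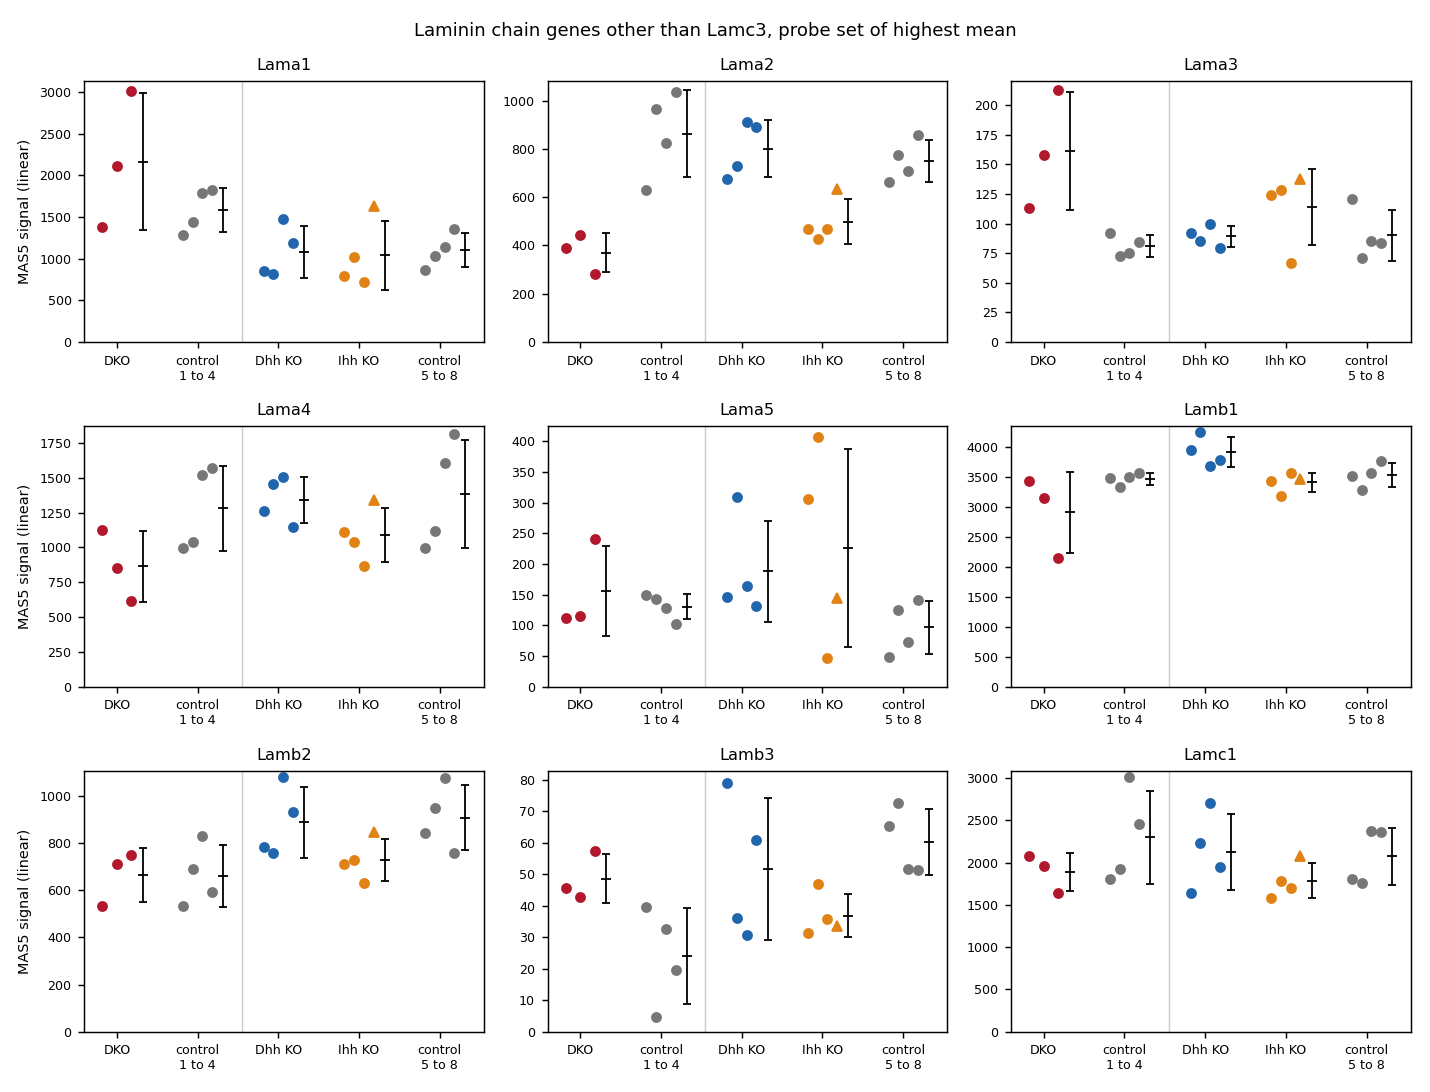
MAS5 signal (linear axes from 0) on each array for the brightest probe set of the 9 genes other than Lamc3, with group mean and SD as a bar beside the points and the array labelled Ihh KO 4 as a triangle. Lama2 lies lower in DKO and Ihh KO than on the controls of each set, and DKO 3 is the highest array for Lama1 and Lama3.

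Over the 14 tested probe sets, 0 passed in Dhh KO (limma, adjusted p under 0.05, 0 at an unadjusted p under 0.05), where 0% of all 23354 probe sets passed and 10.8% had an unadjusted p under 0.05. In Ihh KO 0 of 14 passed, with 1 at an unadjusted p under 0.05 (Lama2), against 0.0343% and 13.7% of all. In Ihh KO against Dhh KO 0 of 14 passed, with 1 at an unadjusted p under 0.05 (Lama2), against 0% and 11.4% of all. The members lay lower on balance in Ihh KO, with 12 of 14 below the controls and a median of -0.20, beside 13308 of 23354 below and a median of -0.04 over all probe sets tested. Counted by gene, with the brightest probe set of each, 7 of 9 were below. With a correlation fitted for the matched controls, 0 probe sets in all passed in Ihh KO. Beside these values, marker lists in Ihh KO, with 0 genes past the threshold, had medians of 0.48 for surface epithelium (7 of 7 higher), 0.30 for endothelium (6 of 6 higher) and -0.36 for smooth muscle (6 of 6 lower). Others were 1.03 for adipocyte (2 of 2 tested higher) and 0.40 for oviduct epithelium (5 of 5 tested higher). Theca and steroidogenic genes stood at 0.28 (3 of 4 higher) and granulosa genes at -0.07 (4 of 5 lower). Fibroblast genes stood at 0.14 and oocyte genes at 0.06 (5 of 5 higher in each). By array, the surface epithelium list stood at -0.01, 0.29, 0.30 and 0.70 on Ihh KO 1 to 4. The summed signal of 2 corpus luteum genes ran between 8868 and 16196 for Ihh KO 1 to 3, against 185 to 9708 for controls 5 to 8, and the array labelled Ihh KO 4 had 1678. The part of these cell types in the laminin values was not tested. In Dhh KO 4 of 14 were below (median 0.05, all probe sets -0.03), and in Ihh KO against Dhh KO 13 of 14 were below (median -0.26, all probe sets -0.02). By gene these counts were 3 of 9 and 8 of 9. Dhh KO and Ihh KO share controls 5 to 8, so their values are given side by side only. Arrays that did not overlap, with the mutant lower, were found for 1 of 14 in Ihh KO (4.41% of all), 0 of 14 in Dhh KO (3.71%) and 2 of 14 in Ihh KO against Dhh KO (Lama2 and the brightest Lamb1 probe set, 3.14%). With the mutant higher there were 0 of 14 in each of these comparisons, where 2.14% of all probe sets were so in Dhh KO, 1.93% in Ihh KO and 2.47% in Ihh KO against Dhh KO. In DKO 10 of 14 were below the controls (median -0.32, all probe sets 0.01), or 5 of 9 by gene. The count past the threshold there was 3 (both Lamc3 probe sets and Lama2, all lower), beside 2.15% of all probe sets (1.05% higher, 1.1% lower). Arrays did not overlap for 3 of 14 that were lower (5.58% of all) and for 1 that was higher, Lama3 (6.32% of all). Nothing is read from these DKO counts, since the choice of the family rests on that comparison. The Gapdh 3'/5' ratio, a measure of RNA integrity, was 2.08 to 2.79 in Dhh KO and 1.90 to 2.37 in Ihh KO, against 1.89 to 2.01 on controls 5 to 8. It was 1.68 to 1.78 in DKO, against 1.69 to 1.80 on controls 1 to 4. Its part in the single knockout values was not tested.

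**Figure D3:**
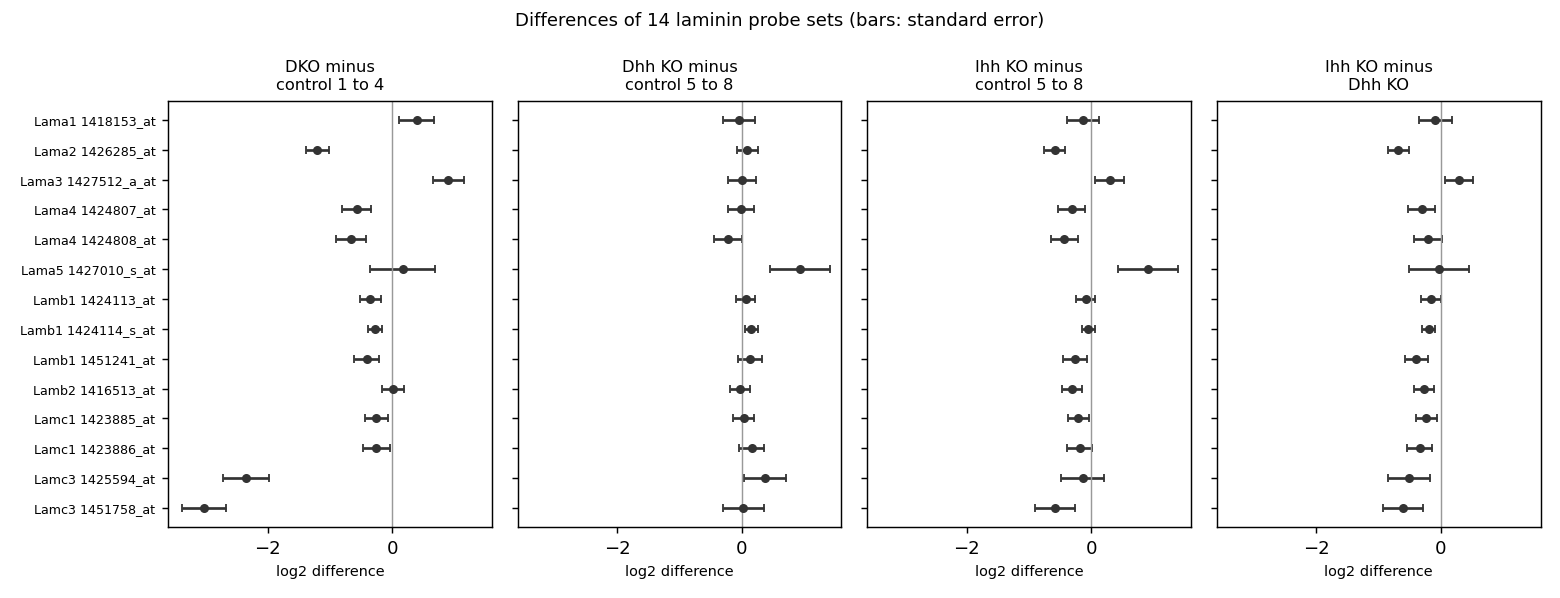
Log2 differences (horizontal axes, bars for 1 standard error) of the 14 tested laminin probe sets in each comparison, DKO as a description and the others as tested. Both Lamc3 probe sets lie at -2.35 or lower in DKO, and Lama2 is the lowest point in Ihh KO and in Ihh KO against Dhh KO.

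The DKO arrays were not alike in the other chains. Against the mean of controls 1 to 4, DKO 3 stood at -1.57 for Lama2, -1.01 for Lama4, -0.69 for Lamb1, -0.45 for Lamc1, 0.94 for Lama1 and 1.33 for Lama3. DKO 1 stood at -1.12, -0.15, -0.01, -0.12, -0.18 and 0.45 for the same genes. Lamc3 was low on all 3, at -2.81, -3.02 and -3.25. Several marker lists of other cell types stood apart in DKO. The summed signal of 6 smooth muscle genes was 5137 to 11767 in DKO against 13723 to 18296 on controls 1 to 4, with 6 of 6 lower. That of 6 endothelial genes was 2032 to 2982 against 3064 to 4157, with 5 of 6 lower, and that of 4 theca and steroidogenic genes 14962 to 20468 against 29501 to 38924, with 4 of 4 lower. That of 2 corpus luteum genes was 1886, 4808 and 212 on DKO 1 to 3, within the 111 to 10678 of controls 1 to 4. That of 5 fibroblast genes was 14446 to 22515 in DKO and 18429 to 29520 on controls 1 to 4, ranges that overlap, with 5 of 5 lower. That of 7 surface epithelium genes was 7121 to 10531 against 3916 to 5696, with 7 of 7 higher. That of 6 oviduct epithelium genes was 2009 to 12831 against 751 to 1437, with 5 of 5 tested higher. The summed signal of 3 adipocyte genes was 6083, 618 and 8429 on DKO 1 to 3, against 585 to 2475 on controls 1 to 4. That of 5 oocyte genes was 7579 to 12120 in DKO and 5056 to 10234 on controls 1 to 4, with 5 of 5 higher. Granulosa genes stood at medians of -0.05 to 0.25 across the DKO arrays. On DKO 1 to 3 the median of the smooth muscle list stood at -0.29, -2.53 and -1.07, lowest on DKO 2. That of the endothelium list stood at -0.07, -0.28 and -0.72 and that of the theca and steroidogenic list at -0.88, -0.98 and -3.10. The fibroblast list stood at -0.19, -0.08 and -0.78. These other lists were lowest on DKO 3, as were Lama2, Lama4, Lamb1 and Lamc1. The surface epithelium and oviduct epithelium lists were highest there (1.34 and 3.49). Myh11, of the smooth muscle list, read 1221, 236 and 828 in DKO against 1784 to 3018 on controls 1 to 4. The part of these cell types in the laminin values was not tested.

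**Figure D4:**
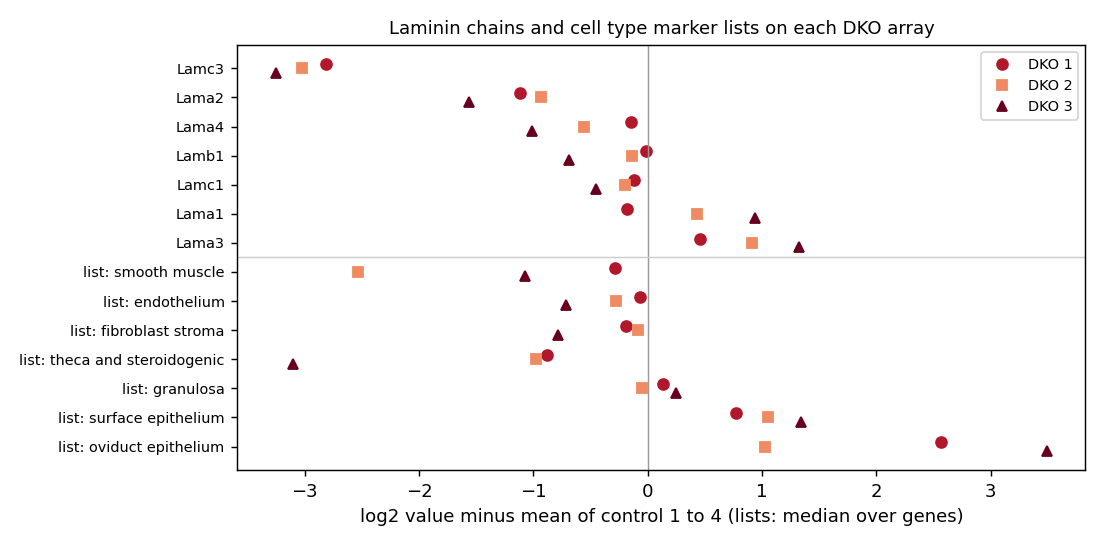
Log2 value minus the mean of controls 1 to 4 (horizontal axis) on each DKO array, for laminin chains above the line and for the median of each marker list below it. Lamc3 lies between -3.25 and -2.81 on all 3 arrays, and every chain shown, Lamc3 included, lies farthest from 0 on DKO 3.

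Among themselves, the chains varied within groups in a few shared ways. Over the 19 arrays, deviations from the group means correlated at r = 0.80 between Lama4 and Lamc1, 0.67 between Lama1 and Lamb2 and 0.62 between Lama4 and Lamc3. Lama4 and Lamb1 correlated at 0.57 and Lamc3 and Lamc1 at 0.56, and Lama2 and Lamb3 gave the lowest value of the 45 pairs, -0.54. These arrays share a scaling, and the control arrays of the 2 sets deviate together in matched order, so the points are not independent. Patterns over the 19 arrays, as values minus the mean of own-set controls, were compared with that of Lamc3 for the genes tested. Genes with clone, Gm, Rik or LOC names were left out. The 8 nearest were Nhsl2 (r = 0.96), Sorcs2 (0.92), Aebp1 (0.91), Tst (0.90), Ldb2 (0.90), Chst2 (0.88), Nr2f2 (0.88) and Tpm2 (0.88). All 8 were lower in DKO, by which they were in effect picked, with Nhsl2 at a mean signal of 297 in DKO and 1173 on controls 1 to 4. Sorcs2, a sorting receptor, stood at 157 in DKO and 855 on these controls, and Nr2f2, a nuclear receptor of stromal and venous cells, at 3178 and 5427. Within the 12 arrays of the second set, their correlations with Lamc3 were 0.80 for Nhsl2, 0.79 for Ldb2, 0.78 for Tst and 0.41 to 0.67 for the other five. These 12 arrays are among the 19 by which the genes were picked, so the values are not a separate check.

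The partners of laminin in the basement membrane and its receptors were read from 2 lists of 34 genes, of which 31 were tested by their brightest probe set. In Dhh KO, in Ihh KO and in Ihh KO against Dhh KO 0 of 31 passed (limma). In DKO, again as a description, 2 of 31 were past the threshold, both higher, beside 2.15% of all probe sets (1.05% higher). When all genes were likewise taken by 1 probe set each, 374 of 12381 were past it, 194 of them higher. These were Itga6, an integrin chain of laminin receptors, at 3612 ± 295 in DKO (SD, n = 3) and 2372 ± 147 on controls 1 to 4 (n = 4), and Fras1, a protein of epithelial basement membranes. Fras1 read 112, 287 and 235 in DKO, against 76.3, 91.3, 68.6 and 99.4 on controls 1 to 4, but 127 to 225 on controls 5 to 8. Apart from Itga6 and Fras1, the highest log2 values of DKO in the lists were those of Ntn4, a laminin-binding netrin (1.01), the integrin chain Itgb4, too dim to be tested (0.89), and Ntn1 (0.67). The lowest were those of Tinagl1 (-0.66), Frem1 (-0.55), Dmd, dystrophin (-0.29), Nid2, a nidogen (-0.25), and Cd151, a tetraspanin that binds laminin-binding integrins (-0.19). These values of DKO are descriptions like those of the chains. Hspg2, perlecan, named here after its values were seen, averaged 369 ± 136 in Ihh KO (SD, n = 4) and 644 ± 131 on controls 5 to 8 (n = 4), a difference of -0.86 (SE 0.28, limma adjusted p = 0.19) that did not pass. Its second probe set stood at -0.30 (SE 0.21, limma adjusted p = 0.55).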

How the data were processed

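The deposited values are linear MAS5 signal intensities, 1 per probe set and array, per the submitters' processing notes. Their settings were not stated. RNA was amplified and biotin-labelled with a WT-Ovation Pico kit, per the labels' protocols. The authors had scaled each array, since the mean after trimming 2% at each end was 500 on all 19. Gene names came from the platform annotation supplied with the table. Values were taken as log2(signal + 7.02), the pseudocount being the 10th percentile of all signals. Single-gene probe sets with a mean log2 value at or above the 40th percentile (6.25), 23354 in all, were tested with limma 3.58.1 in R 4.3.3 (two-sided moderated test with a trended prior), in 1 model of 5 group means over the 19 arrays, with controls of the 2 hybridization sets as separate groups, Benjamini-Hochberg adjustment over all probe sets and a threshold of 0.05. The fit was tested on simulated data. No detection calls were used, and the number of arrays limits the precision. Figures were drawn with matplotlib 3.10.9 in Python 3.11.15.

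The members and gene lists were chosen with earlier results of these data known. The text names all members, listed genes past the threshold in a tested comparison, the 5 largest rises and falls of the listed partners and receptors in DKO, and the 8 genes nearest to Lamc3 in pattern. Clone, Gm, Rik and LOC names were left out of the search for those 8. Deviations of same-numbered DKO and control 1 to 4 arrays correlated at r = 0.16, 0.17 and 0.12 across probe sets. Those of Dhh KO and Ihh KO correlated at -0.23 to 0.16. Arrays of different numbers were not compared and the labels do not say what a number marks, so these values cannot show whether the numbers pair arrays. Controls 1 to 4 matched controls 5 to 8 in order (0.52 to 0.74).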

Additional observations from a re-analysis of the deposited data

Results flagged for a closer look

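Of 76 sets of 4 arrays (19 laminin probe sets in Dhh KO, Ihh KO and each set of controls), 4 held an array far from the other three, close to the 1 in 20 that chance gives. Ihh KO 3 read 66.3 for Lama3, against 124 to 138 on the other Ihh KO arrays. It also read 31.8 for a dim, untested Lamb1 probe set, against 79.6 to 88.6. Control 2 read 15.6 for the dimmer, untested Lama3 probe set, against 2.46 to 3.65 on controls 1, 3 and 4. It read 616 for the third Lamb1 probe set, against 734 to 759.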

How the results depend on the processing

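The number of laminin probe sets past the threshold was 0 in Dhh KO, in Ihh KO and in Ihh KO against Dhh KO under every alternative run. The counts over all probe sets moved, from 0 in Dhh KO, 8 in Ihh KO, 0 in Ihh KO against Dhh KO and 502 in DKO. Pooling all 8 controls, which may not be separate samples, gave 4 in Dhh KO, 3 in Ihh KO and 900 in DKO, and using arrays of the own set alone gave 126 in DKO. For Ihh KO, a correlation shared by matched controls and a filter at the 60th percentile each gave 0, median centring and 1 probe set a gene each gave 2, and no filter and no intensity trend each gave 24. Median centring gave 329 and the 60th percentile filter 335 in DKO. A pseudocount at the 25th percentile gave 2 in Dhh KO and 14 in Ihh KO, and quantile normalization gave 12 in Ihh KO and 392 in DKO. Arrays of the own set without the array labelled Ihh KO 4, chosen after seeing the data, gave 1 in Dhh KO, 34 in Ihh KO, 12 in Ihh KO against Dhh KO and 126 in DKO. Leaving out 1 array at a time gave 0 to 15 in Dhh KO (15 without control 8) and 0 to 176 in Ihh KO (176 without control 8, 89 without the array labelled Ihh KO 4). It gave 0 to 46 in Ihh KO against Dhh KO (46 without the array labelled Ihh KO 4) and 154 (without DKO 3) to 706 (without control 4) in DKO. The causes were not tested. The pseudocount of 29.4 moved the Lamc3 values of DKO to -2.34 and -1.63. With the replicate number as a block, DKO had 505 and Ihh KO against Dhh KO 0 calls. No paired analysis was possible for Dhh KO and Ihh KO against controls 5 to 8 because the labels give these groups no shared replicate numbers. Signals under the filter, Lamb3 among them, were too dim to be tested.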
